A study of Mus musculus with 6 samples.

Results

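Iron handling was examined through 10 genes of the mRNA table: Trf, Tfrc, Slc11a2, Fth1, Ftl1, Slc40a1, Cp, Hmox1, Ireb2 and Aco1. They were taken by symbol from a table of 22298 genes, and each symbol matched 1 row. The set was selected on the count and FPKM values of the same comparison, METTL3 siRNA with control siRNA, with its results known. The differences of these genes are therefore given as a description, with the fitted change and its standard error (SE) but without p-values of their own. The lists of further genes used below were also chosen with earlier results of these data known. Adjusted p-values and counts of calls printed for them come from the fit of all genes and are likewise a description. The material was GC-1spg, a line of immortalised mouse germ cells that serves as a model of type B spermatogonia, in 6 RNA sequencing libraries of total RNA. In 3 libraries, called the controls here, the cells had received a control siRNA (si-NC), and in 3 an siRNA against METTL3 (si-METTL3), the methyltransferase that places N6-methyladenosine (m6A) on mRNA. All cells were grown in DMEM with serum, transfected at 60% density and collected after 48 h, and no library was of untransfected cells. The labels tag the control libraries as untreated and print the same sequence for both siRNAs, so the control sequence is not known. They do not say whether the replicates were separate cultures, so p-values measure only the spread between these libraries, which may be technical.

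Iron travels in plasma bound to transferrin, enters cells with the transferrin receptor, leaves the endosome through the transporter DMT1 and is stored in ferritin. Ferroportin is the exporter, and ceruloplasmin is a copper enzyme that oxidises the iron which leaves the cell. The iron regulatory proteins bind short RNA hairpins, the iron-responsive elements, when iron is scarce. An element in the 5′ UTR lets them block translation, and elements in the 3′ UTR let them protect the mRNA from decay. In the testis, transferrin is a known secretory product of Sertoli cells.

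Iron-responsive elements were looked for in the annotated transcripts because they tie several of the 10 genes together. The pattern was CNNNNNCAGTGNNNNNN on the transcript strand, with the 5 bases before the loop CAGTGN able to pair, G-T pairs allowed, with the 5 bases after it. It was found in 4 of the 10 genes. Each match is shown 5′ to 3′ with 6 further bases on either side and the loop in capitals, from GENCODE M21 (GRCm38).
Fth1, 5′ UTR, chr19:9982732-9982760, plus strand: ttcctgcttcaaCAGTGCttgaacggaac
Ftl1, 5′ UTR, chr7:45459779-45459807, minus strand: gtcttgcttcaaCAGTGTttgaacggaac
Slc40a1, 5′ UTR, chr1:45925465-45925493, minus strand: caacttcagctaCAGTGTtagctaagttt
Tfrc, 3′ UTR, chr16:32631219-32631247, plus strand: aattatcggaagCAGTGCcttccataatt
Tfrc, 3′ UTR, chr16:32631598-32631626, plus strand: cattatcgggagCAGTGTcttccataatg
Tfrc, 3′ UTR, chr16:32631663-32631691, plus strand: ctatatcggagaCAGTGAtctccatatgt
Tfrc, 3′ UTR, chr16:32631710-32631738, plus strand: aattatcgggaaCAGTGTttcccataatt
The same pattern lay in a 5′ UTR in 0.0868% and in a 3′ UTR in 0.475% of 21901 protein-coding genes, searched in 1 transcript each. It did not match in Trf, Slc11a2, Hmox1, Ireb2, Aco1 or Cp. This says only that their annotated coding transcripts hold no stretch with both these letters and all 5 pairs. A hairpin with an unpaired base among those 5, or with another loop, would be missed, so an element in these genes is not excluded.

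The mRNA table held between 22146057 and 37698956 counts per library. The targeted gene, Mettl3, had 606, 578 and 683 counts in the controls against 142, 134 and 136 after METTL3 siRNA, and the fitted log2 difference was -1.79 (SE 0.14; adjusted p = 0.000579 in edgeR). Of the spermatogonia markers, Uchl1 had 865 to 1516 counts, Gfra1 78 to 140 and Id4 35 to 70, while Sall4 had 0 in every library, Dazl at most 1 and Ddx4 at most 7. Of the Sertoli markers, Wt1 had 4837 to 7693 counts and Sox9 527 to 834, while Fshr had 0 and Rhox5 at most 6. Libraries also differed in markers of other tissues and in base composition. The 10 lung markers summed to 3.56, 2.12 and 55.2 CPM (counts scaled to library size) in the controls against 82.9, 83.3 and 57.1 after METTL3 siRNA, so si-NC replicate 3 stood with the si-METTL3 libraries. For base composition, each gene's log2 CPM was taken as its deviation from its mean over the 6 libraries. The slope of these deviations on GC content, per 10 percentage points, was 0.14, -0.22 and 0.27 log2 units in the controls. After METTL3 siRNA it was 0.10, -0.09 and -0.19. The sign of a slope is relative to the average of the 6 libraries. Here si-NC replicate 2 stood with si-METTL3 replicates 2 and 3.

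Of the 10 genes, 2 were called higher in si-METTL3, Trf and Cp, and none lower, in edgeR's quasi-likelihood fit of all 13082 tested genes (Benjamini-Hochberg adjusted p under 0.05, here "the threshold"). All 10 genes were tested. The rule called 18.9% of all tested genes, with 8.67% of all tested genes higher and 10.2% lower, and nothing is read from the count of 2, since the genes were chosen on this comparison. The CPM of the groups did not overlap for Trf and Cp, which were higher in si-METTL3, nor for Ftl1 and Hmox1, which were lower. Across all tested genes this held for 20.2% upward and 21.3% downward. The median log2 fold change was 0.02 over the 10 genes and 0.03 over all tested genes.

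**Figure D1:**
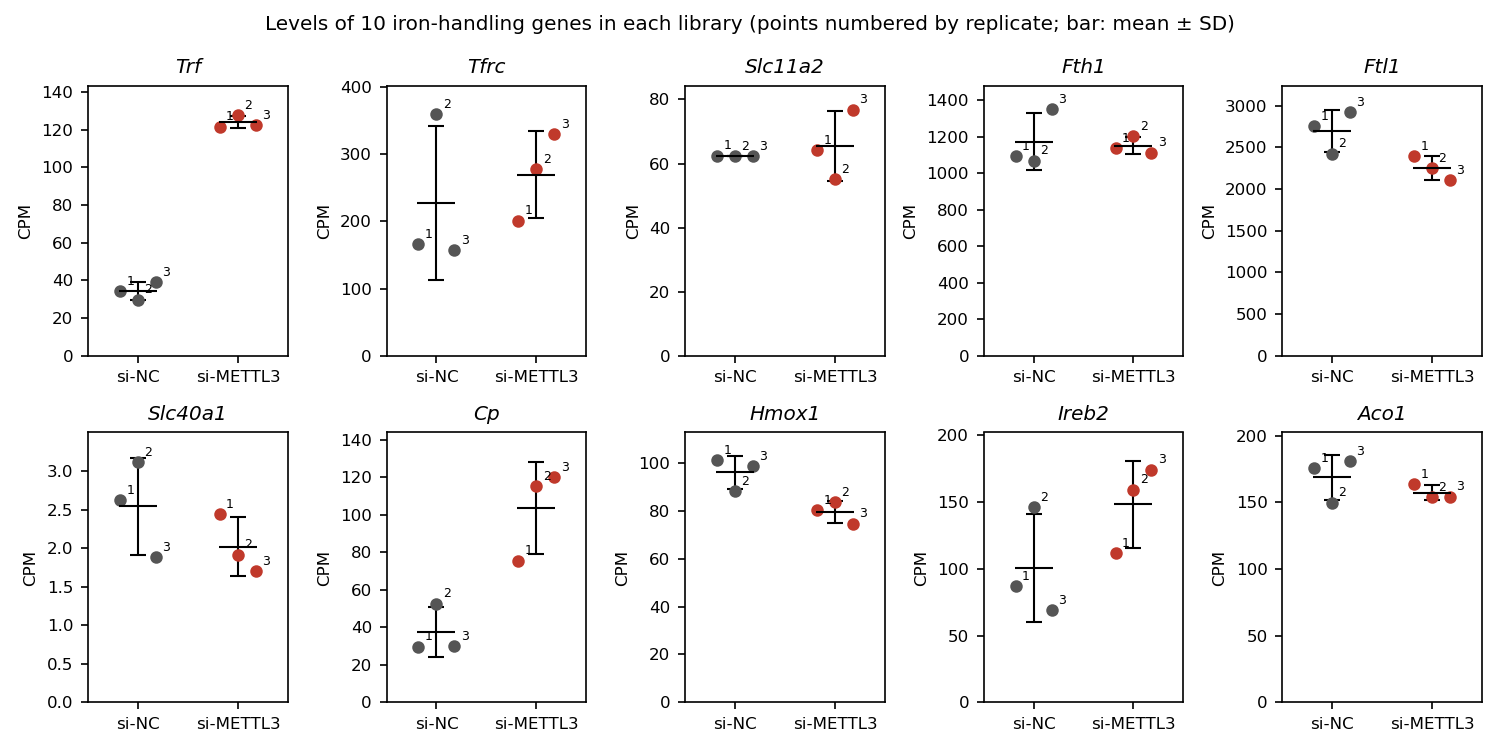
CPM of the 10 genes in each library, with si-NC in grey and si-METTL3 in red, points numbered by replicate and bars giving mean ± SD (n = 3). In Trf the si-METTL3 libraries sit at 122 to 128 CPM and the si-NC libraries at 29.9 to 39.2, whereas for Tfrc si-NC replicate 2 is the highest of all 6.

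Transferrin, the plasma iron carrier, was the member with the largest difference. Trf (ENSMUSG00000032554, chromosome 9, 103204001 to 103230444, minus strand, GRCm38) had 1204, 901 and 1439 counts in the controls against 3884, 2864 and 3019 after METTL3 siRNA. Scaled to library size these were 34.3, 29.9 and 39.2 CPM against 122, 128 and 122. The 3 si-METTL3 libraries lay close together and far above every si-NC library. Trf rose from 34.5 ± 4.66 to 124 ± 3.28 CPM (SD, n = 3), a 3.59-fold difference and a log2 fold change of 1.84 (SE 0.11). The difference stayed between 1.75 and 1.92 when any 1 library was left out, and Trf was called in all 6 of those fits. In bulk RNA of this kind, a change in the number of expressing cells and a change in RNA per cell cannot be told apart.

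Markers of other sources of transferrin were measured in the same libraries. Transferrin is a major product of hepatocytes, and of 10 hepatocyte markers Tat had 0 counts throughout and Serpina1a at most 1, and the albumin gene Alb had 8, 15 and 15 counts in the controls against 6, 3 and 7 after METTL3 siRNA. The 10 summed to 0.627 to 2.95 CPM in the controls against 3.73 to 4.72 after METTL3 siRNA, and the part of these markers in the difference of Trf was not tested. Of the 2 that were tested, Apob was called (2.23) and Ttr was not. The lung markers were high in si-NC replicate 3, where Trf was at 39.2 CPM, and without that library the log2 fold change of Trf was 1.92. The part of the lung markers in the difference of Trf was not tested. Erythroid markers had a total of 0.627, 0.862 and 12.2 CPM in the controls against 12.5 to 18.9 after METTL3 siRNA, and macrophage markers a total of 6.07, 6.17 and 21.4 against 22.1 to 30.4, and their part in the difference of Trf was not tested. Trf was highest of the control libraries in si-NC replicate 3. Of 11 Sertoli markers, Trf among them, 9 were tested: Clu (1.37) and Wt1 (0.61) rose with Trf, Gata4 fell by 0.41 on the log2 scale, and Sox9 (0.18), Amh (-0.26) and Inhbb (0.02) did not pass.

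**Figure D2:**
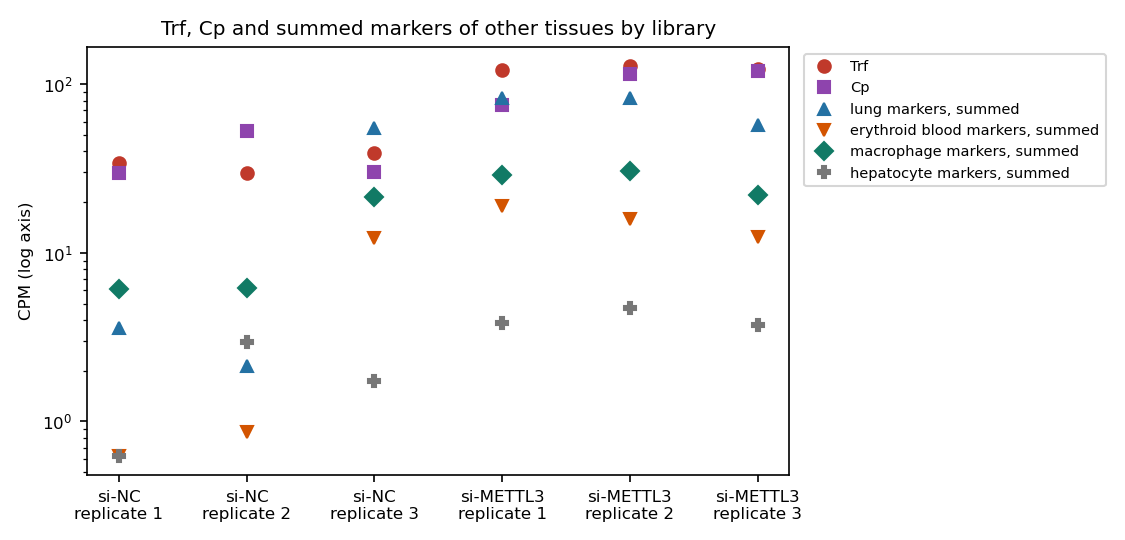
CPM of Trf and Cp and summed CPM of marker lists of other tissues in each of the 6 libraries, on a log axis. The lung, erythroid and macrophage sums are low in si-NC replicates 1 and 2 and high in si-NC replicate 3. In that library Trf is at 39.2, Cp at 30.2 and the hepatocyte sum at 1.74 CPM. The part of these markers in the differences of Trf and Cp was not tested.

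The 5 tested genes whose profile over the 6 libraries was nearest to that of Trf (Euclidean distance of centred log2(CPM + 0.5), 0.17 to 0.35) were 4930438A08Rik, St8sia1, Spon2, Cemip and Slurp1. All were less abundant, from 0.0332 to 2.91 CPM in the controls against 1.66 to 10.9 after METTL3 siRNA. The added 0.5 shrinks differences at such low levels, so nearness to Trf depends in part on it. Slurp1 had a fitted log2 fold change of 2.91 against 1.84 for Trf. St8sia1 encodes a sialyltransferase of ganglioside synthesis and Cemip a protein of hyaluronan breakdown. Of the other transferrin family genes, lactoferrin (Ltf) had 0, 0 and 8 counts in the controls against 7, 4 and 3 after METTL3 siRNA, and melanotransferrin (Meltf) at most 3 in any library, too few to be tested.

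Neither of the uptake genes of the set passed the threshold. Tfrc, encoding the transferrin receptor, measured 166, 359 and 157 CPM in the controls against 201, 277 and 329.8 after METTL3 siRNA. Its highest library was si-NC replicate 2, and the groups overlapped. The means were 228 ± 114 and 269 ± 64.6 CPM (SD, n = 3; log2 fold change 0.24, SE 0.34), so the difference was smaller than the spread within either group. Without si-NC replicate 2 the log2 fold change was 0.73 and the gene was called, in a fit that called 36.8% of all genes; in the other 5 leave-out fits it lay between 0.01 and 0.39 with no call.

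The level of Tfrc moved with the GC slope from library to library. Its transcript is 4890 bases long with 39.8% GC, against a median of 50.5% over the 11248 genes used to fit that slope. Ordered by their slope on GC content, from the lowest (si-NC replicate 2) to the highest (si-NC replicate 3), the 6 libraries were also in falling order of Tfrc CPM. The slope was fitted over genes of these same libraries, so GC-poor genes tend to fall as it rises. The share of genes that keep this order was not computed. For the trends below, length was taken from the deposited counts over FPKM, not from the annotation. When each library's trend on that length and on GC content was removed, an alternative chosen after seeing the data, the log2 fold change was -0.05 (SE 0.11). These trends were fitted without regard to group, so a group difference that runs with length or GC content was removed too. The slope of each gene's deviation from its mean on length, per doubling, was -0.091, 0.027 and -0.157 log2 units in the controls. After METTL3 siRNA it was 0.034, 0.082 and 0.105. Each si-METTL3 slope was above each si-NC slope. Values with trends removed, here and below, may therefore lack part of a group difference.

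**Figure D3:**
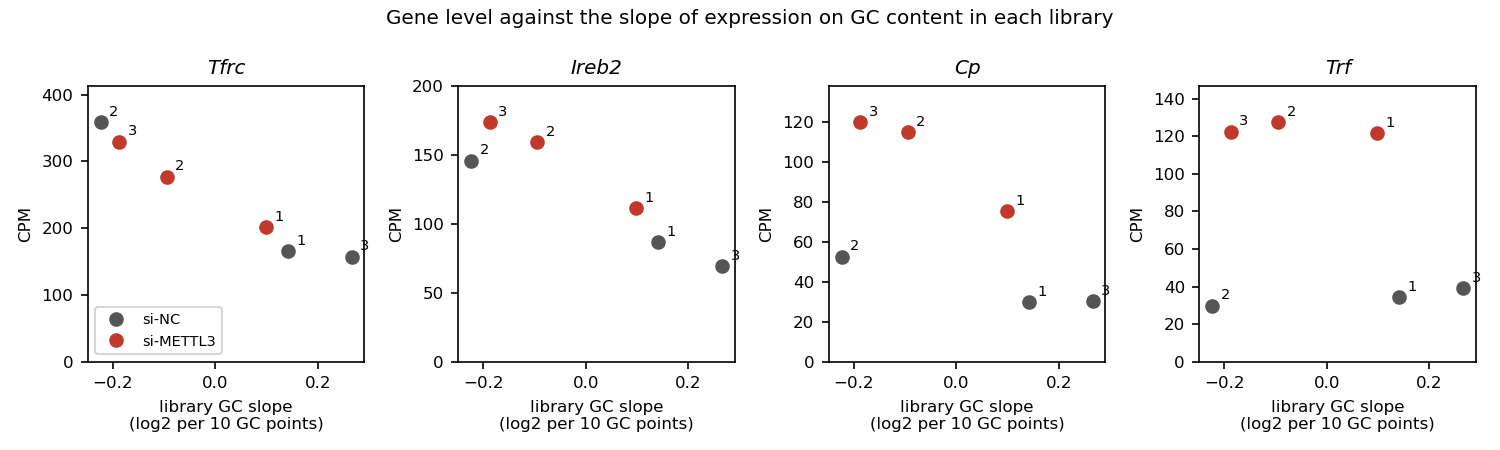
CPM of Tfrc, Ireb2, Cp and Trf against each library's GC slope (log2 units per 10 percentage points). The slope is that of each gene's log2 deviation from its mean over the 6 libraries on GC content. Points are grey for si-NC and red for si-METTL3, numbered by replicate. Tfrc falls from library to library as the slope rises, Ireb2 does so except for si-NC replicate 2, Cp stays above si-NC in every si-METTL3 library, and Trf separates the groups at every slope.

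Slc11a2, encoding the endosomal iron transporter DMT1, measured 62.5, 62.4 and 62.4 CPM in the controls against 64.1, 55.1 and 76.8 after METTL3 siRNA. The si-NC libraries were almost equal, the si-METTL3 libraries lay on both sides of them, and the log2 fold change was 0.07 (SE 0.12). Its sign turned without si-METTL3 replicate 3 (-0.07). Around the receptor, Steap3, the ferrireductase of the transferrin endosome, had a fitted log2 difference of 0.43 (SE 0.13; adjusted p = 0.0565 in edgeR) and its relative Steap2 0.32, neither past the threshold. Steap3 passed (0.47) and Steap2 had 0.02 with the length and GC trends removed. Steap1 fell by 0.51 on the log2 scale (edgeR adjusted p = 0.0208). Of 14 further genes in the uptake list 11 were tested, 1 fell and none rose, near the 10.2% and 8.67% of all tested genes. The call of Steap1 held in 3 of 6 leave-out fits. Tfr2, the second transferrin receptor, had at most 1 count in any library.

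Ferritin was the most abundant product of the set. On the FPKM scale, which is per length and allows genes to be compared, Ftl1 ranked first and Fth1 second in all 6 libraries, and Slc40a1 ranked last. Ftl1 encodes the light chain, which favours mineral formation, and Fth1 the heavy chain, which carries the ferroxidase activity. Ftl1 measured 2755, 2424 and 2919.6 CPM in the controls against 2391, 2246 and 2104 after METTL3 siRNA, with every si-METTL3 library below every si-NC library. The log2 fold change was -0.26 (SE 0.09) and did not pass, except without si-NC replicate 2 (-0.34). After the length and GC trends were removed it was -0.07 (SE 0.04).

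Fth1 measured 1094, 1069 and 1351 CPM in the controls against 1138, 1204 and 1113 after METTL3 siRNA. The groups overlapped, with the highest value in si-NC replicate 3, and the log2 fold change was -0.03 (SE 0.10). It was 0.18 (SE 0.07) with the length trend removed and 0.24 (SE 0.07) with both trends removed, where it passed the threshold. Both chains have short transcripts, and their ratio within a library is a further measure: the FPKM of Ftl1 over that of Fth1 was 2.14, 1.92 and 1.85 in the controls against 1.80, 1.63 and 1.64 after METTL3 siRNA. Each si-METTL3 ratio was below each si-NC ratio, with means of 1.97 ± 0.153 and 1.69 ± 0.0943 (SD, n = 3). Ferritin genes have processed pseudogenes whose reads the counting could have split, and the sources used here do not give how such reads were divided. The deposited pseudogene row Ftl1-ps1 had 5 to 15 counts.

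**Figure D4:**
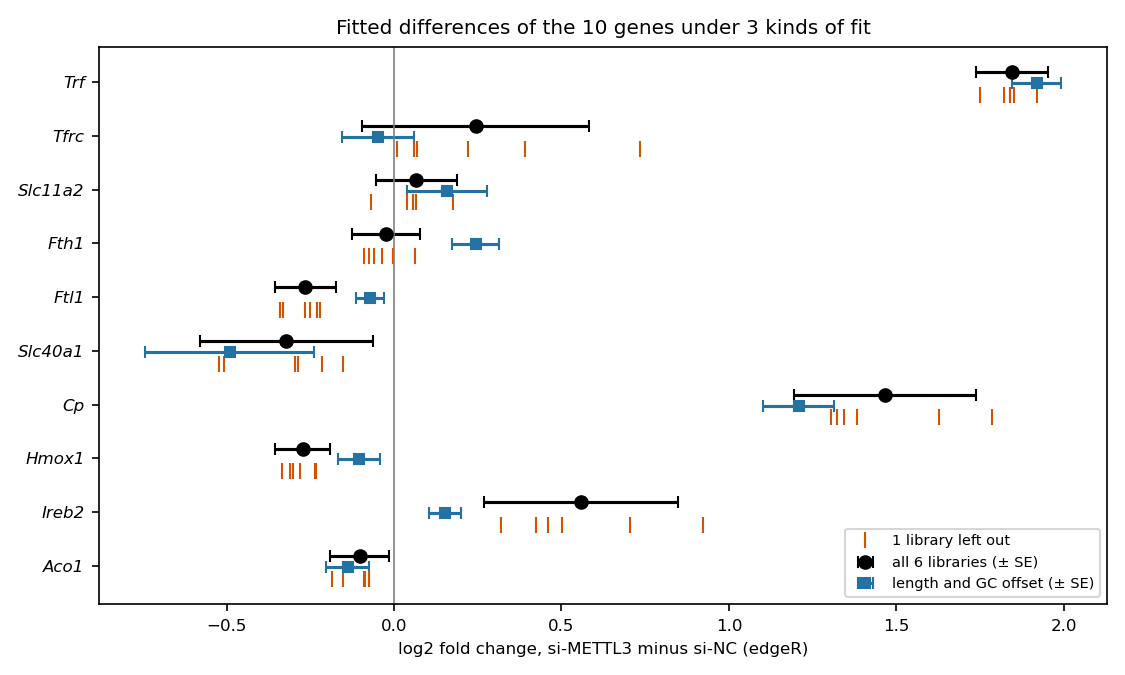
Log2 fold change of the 10 genes (si-METTL3 minus si-NC) with all 6 libraries (black, ± SE), with length and GC trends removed (blue, ± SE) and with 1 library left out at a time (orange). Trf and Cp stay above 1 in every fit shown, while Tfrc, Slc11a2 and Fth1 fall on both sides of 0.

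Among the export genes, Cp rose and Slc40a1 was scarce. Cp (ENSMUSG00000003617, chromosome 3, 19957054 to 20009145, plus strand, GRCm38), encoding the ferroxidase ceruloplasmin, had 1042, 1586 and 1107 counts in the controls against 2413, 2583 and 2959 after METTL3 siRNA. This corresponded to 29.7, 52.6 and 30.2 CPM against 75.5, 115 and 120.03. Within each group 1 library stood apart, si-NC replicate 2 above its group and si-METTL3 replicate 1 below, and the groups did not overlap. The means were 37.5 ± 13.1 and 104 ± 24.4 CPM (SD, n = 3; 2.76-fold, log2 fold change 1.47, SE 0.27).

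With 1 library left out the log2 fold change of Cp lay between 1.30 and 1.79, and the threshold was missed on leaving out control replicate 1 (1.32) or either of si-METTL3 replicates 2 and 3 (1.38 and 1.34). Cp has a GC-poor transcript (41.7%). Within each group the level of Cp was higher in the libraries whose GC slope, relative to the average library, was negative. With the length and GC trends removed the log2 fold change was 1.21 with an SE of 0.11, and the gene was called. In si-NC replicate 3, where lung markers were high, Cp was at 30.2 CPM against 29.7 in replicate 1. The part of these markers in the difference of Cp was not tested. The genes with the nearest profiles (distance 0.26 to 0.39) were Sytl2, Itgb8, Olr1, Stk26 and Ulbp1, in all of which si-NC replicate 2 was also the highest si-NC library.

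Slc40a1, encoding the iron exporter ferroportin, had 92, 94 and 69 counts in the controls against 78, 43 and 42 after METTL3 siRNA. The CPM values of 2.62, 3.12 and 1.88 in the controls against 2.44, 1.92 and 1.70 after METTL3 siRNA overlapped (log2 fold change -0.32, SE 0.26). The ceruloplasmin relatives Heph and Hephl1 were low too. Heph had at most 5 counts, and Hephl1 had a fitted log2 difference of 0.70 (SE 0.24; adjusted p = 0.0789 in edgeR).

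Hmox1 encodes haem oxygenase, which frees iron from haem and is a textbook target of the transcription factor NRF2. It measured 101.2, 88.2 and 98.6 CPM in the controls against 80.2, 83.5 and 74.6 after METTL3 siRNA. Every si-METTL3 library was below every si-NC library, by a small margin (log2 fold change -0.27, SE 0.08), and the gene did not pass the threshold except without si-NC replicate 2 (-0.33). With the length and GC trends removed the value was -0.10 (SE 0.06). Nfe2l2, which encodes NRF2, rose by 0.54 on the log2 scale (edgeR adjusted p = 0.0108, called in 3 of 6 leave-out fits), and its inhibitor gene Keap1 had -0.07. Bach1, the haem-sensing repressor of Hmox1, had 0.10.

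The iron sensors are the iron regulatory proteins IRP1, encoded by Aco1 and also a cytosolic aconitase, and IRP2, encoded by Ireb2. Ireb2 measured 86.9, 146 and 69.2 CPM in the controls against 112, 159 and 174 after METTL3 siRNA. As for Tfrc, si-NC replicate 2 stood with the upper si-METTL3 libraries, and the groups overlapped (log2 fold change 0.56, SE 0.29). Without si-NC replicate 2 the value was 0.92 and was called. Ireb2 has the lowest GC content of the set (39.0%) and the longest transcript (5770 bases), and with both trends removed its log2 fold change was 0.15 (SE 0.05), not called.

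Aco1 measured 176, 149.8 and 181 CPM in the controls against 164, 154 and 154 after METTL3 siRNA, with overlapping groups (log2 fold change -0.10, SE 0.09). It was called only without si-NC replicate 2 (-0.18). The FPKM of Ireb2 over that of Aco1 was 0.384, 0.727 and 0.313 in the controls against 0.434, 0.779 and 0.777 after METTL3 siRNA, and the difference between the group means of 0.475 and 0.663 was smaller than the SD in either group (0.221 and 0.199). The FPKM of Tfrc over that of Ireb2 stayed between 2.50 and 3.20 in all 6 libraries. Fbxl5, the ubiquitin ligase subunit that removes IRP2 when iron is plentiful, had a fitted log2 difference of -0.07 (SE 0.07), and Hif1a 1.06 (SE 0.33; adjusted p = 0.0637 in edgeR). The Hif1a value was called in 2 leave-out fits and, at 0.75, with the length and GC trends removed.

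Beyond the 10 genes, 108 further genes of iron and haem handling were listed, 107 found and 92 tested. As the lists were chosen with earlier results known, their counts of calls are a description. Of these 3 rose and 12 fell, against 8.67% and 10.2% of all tested genes, and their median log2 fold change was -0.05. With the length and GC trends removed 16 rose and 14 fell, where 14.1% of all tested genes rose and 14.1% fell. The share of higher genes among those called went from 20.0% to 53.3% in the lists and from 45.9% to 50.1% over all genes. Without si-NC replicate 2 the counts were 9 and 24, where 17.9% of all tested genes rose and 18.9% fell. Genes with 0 counts in every library were Ftmt (mitochondrial ferritin), Hamp2 (a hepcidin gene) and Hpx (the haem carrier haemopexin).

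**Figure D5:**
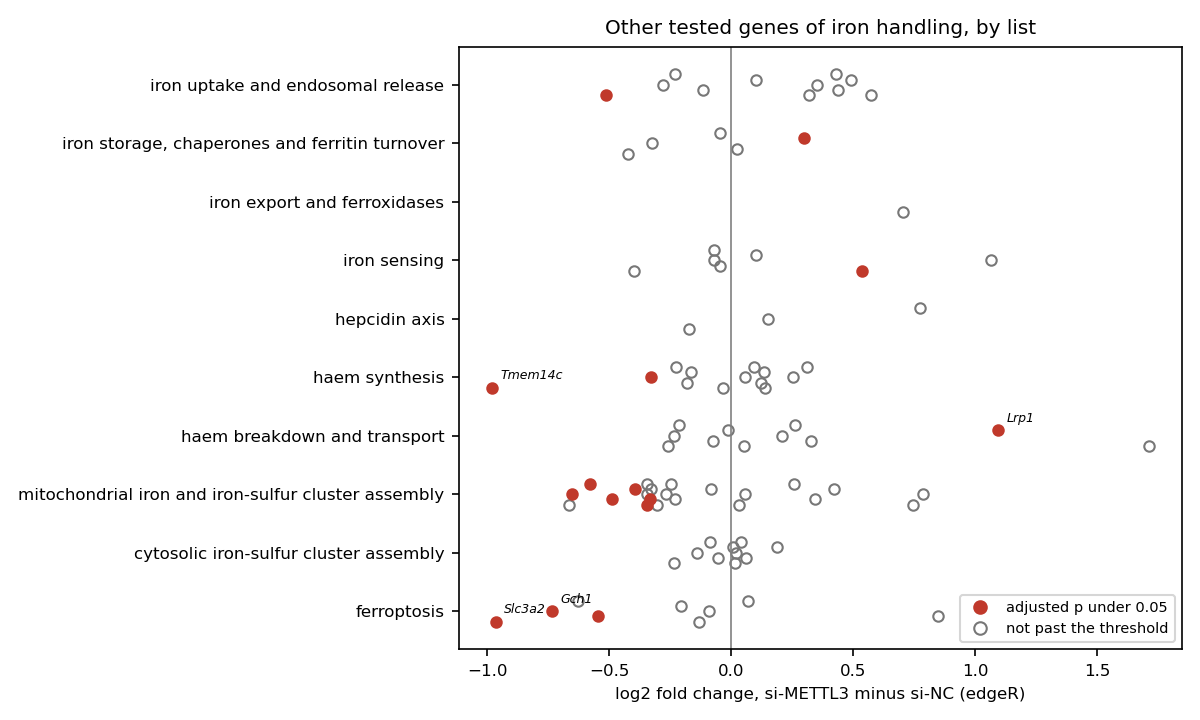
Log2 fold change (si-METTL3 minus si-NC) of the other tested iron-handling genes by list, with genes past the threshold in filled red and the rest open. The filled points of the mitochondrial list all lie below 0, and Lrp1 and Tmem14c are the called genes farthest from 0.

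Among the 3 called higher the largest difference was in Lrp1, an endocytic receptor that also takes up the haemopexin-haem complex, with 11726, 9084 and 12493 counts in the controls against 22269, 15666 and 16935 after METTL3 siRNA. The fitted log2 difference was 1.09 (SE 0.07; edgeR adjusted p = 0.000248), called in 6 of 6 leave-out fits and 0.78 with the trends removed. It was the only 1 of 11 tested genes of haem breakdown and transport that passed. Haptoglobin (Hp), also in that list, had a larger log2 fold change (1.71, SE 0.70) that did not pass, with 7, 9 and 60 counts in the controls against 80, 58 and 50 after METTL3 siRNA, low in the same control libraries as the lung markers.

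In haem synthesis 2 of 13 tested genes fell and none rose, where 10.2% of all tested genes fell. Tmem14c, which encodes a mitochondrial membrane protein needed for porphyrin import, had 2385, 1582 and 2426 counts in the controls against 952, 754 and 767 after METTL3 siRNA. It fell by 0.98 on the log2 scale (SE 0.12, edgeR adjusted p = 0.00335), in 6 of 6 leave-out fits. Cpox, the coproporphyrinogen oxidase gene, fell by 0.33 (edgeR adjusted p = 0.0286, called in 1 of 6). The first enzyme of the pathway outside the red cell lineage, Alas1, had -0.17, and Urod had 0.25, which did not pass, although it did with the trends removed (0.43).

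Of 22 tested genes of mitochondrial iron import and iron-sulfur cluster assembly 6 fell and none rose, where 10.2% of all tested genes fell and 8.67% rose, and the median log2 fold change was -0.29. The mitochondrial iron importer gene Slc25a37 (mitoferrin) fell by 0.65, the ferredoxin gene Fdx2 by 0.58 and the cluster carrier gene Nfu1 by 0.49 on the log2 scale (edgeR adjusted p = 0.0158, 0.0202 and 0.0283). The other 3 were Iba57 (-0.40), Hspa9 (-0.35) and Isca1 (-0.33). The call of none of the 6 held in more than 3 leave-out fits, and the number of the list called lower was 0 without si-NC replicate 1 or si-METTL3 replicate 3, 1 without si-METTL3 replicate 1 or 2, 3 without si-NC replicate 3 and 12 without si-NC replicate 2. Over all tested genes those fits called from 350 (without si-METTL3 replicate 3) to 2527 (without si-NC replicate 2) lower. With the length and GC trends removed 5 fell and 3 rose, where 14.1% of all tested genes were called each way, and the median was -0.07. The scaffold gene Iscu (-0.31) did not pass. Of 10 genes of the cytosolic assembly machinery none passed with all 6 libraries in edgeR or DESeq2 (median 0.01). After removal of the length and GC trends 2 passed, Ciao2b (0.27) and Nubp2 (0.17), and without si-NC replicate 2 the list had 1 call, downward. At edgeR's unadjusted threshold of 0.05, 1 gene of the list, Ciapin1, would pass (-0.24).

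The remaining lists held few calls. In iron storage and ferritin turnover, Herc2, the ligase that degrades the ferritin receptor NCOA4, rose by 0.30 (edgeR adjusted p = 0.0261), held that call in 1 of 6 leave-out fits and had -0.05 with the length trend removed. Ncoa4 itself had -0.05, and the iron chaperone genes Pcbp1 and Pcbp2 -0.42 and 0.02. None of 3 tested genes of the hepcidin axis passed, Bmp6 having 0.77 (SE 0.26), and hepcidin (Hamp) had at most 2 counts. Of 9 tested genes of ferroptosis, an iron-dependent form of cell death, 3 fell, where 10.2% of all tested genes did: Slc3a2 by 0.97 on the log2 scale, Gch1 by 0.74 and Chac1 by 0.55 (edgeR adjusted p = 0.000801, 0.0110 and 0.0202). The call held in 6 of 6 leave-out fits for Slc3a2, 5 of 6 for Gch1 and 2 of 6 for Chac1. Slc3a2 and Chac1 are also targets of the amino acid stress response. The glutathione peroxidase gene Gpx4 had -0.21 and the lipid ligase gene Acsl4 0.84, neither past the threshold. With the length and GC trends removed Acsl4 passed (0.44), as did Slc7a11, the cystine transporter gene, which was lower (-0.63 in the fit without that correction, not called).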

How the data were processed

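The authors deposited counts and FPKM values per gene (mRNA table) or transcript (lncRNA table) for each library, with group means, log2 fold changes and p-values of an unnamed test, per the file headers. The submitters' processing notes name RSEM, StringTie, Bowtie2, fastp and the mouse build mm9, without roles; versions, strand and the division of shared reads are not given in the sources used here. The authors' deposited table lists 2 of the 10 genes, Trf and Cp, at an adjusted p under 0.05. It rests on the same libraries, and the 10 genes were chosen on this comparison. The share of all genes under 0.05 in it was not computed, so nothing is read from this count.

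Deposited counts of all genes were fitted with edgeR 4.0.16 in R 4.3.3 (TMM, filterByExpr, quasi-likelihood test of group without covariates, Benjamini-Hochberg adjustment, threshold 0.05). Standard errors were taken from the size of each change over the root of its F statistic. Alternatives used DESeq2 1.42.0, limma 3.58.1 (voom, or log2(FPKM + 1) and log2(FPKM + 0.1), with FPKM of at least 1 in 3 libraries or no filter), a length offset, a length and GC offset, and the replicate block. The script was tested on simulated counts. Positions, printed transcript lengths, GC content and sequences come from GENCODE M21 (GRCm38), and no coordinate was converted from mm9. For the length slopes and both offsets, length was instead the median over libraries of log2 count minus log2 FPKM, centred in each library. Figures used matplotlib 3.10.9.

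The members and lists were chosen with earlier results of these data known. Every member was described. From each list the called genes were named (all of up to 5, otherwise the 3 largest each way) with genes at 0 counts, and the 5 nearest profiles of members with a log2 fold change of at least 1 and 5 CPM. Other genes were named after their values were seen. Totals of 22146057 to 37698956 counts per library set the counting precision.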

Additional observations from a re-analysis of the deposited data

How the results depend on the processing

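Trf was called higher in every alternative run (log2 fold changes 1.77 to 1.92, and 1.75 to 1.92 with 1 library left out), and Cp in all but the 3 leave-out fits named above (1.21 to 1.79 over all). The number of genes called over the whole table ranged from 665 to 4917 when 1 library was left out, against 2468. The highest number came without si-NC replicate 2. A fit with fewer libraries also has less power, and this was not separated from the weight of a single library. Calls of small differences were therefore not stable over these fits. Over the same fits, iron members called higher ranged from 1 to 4 and lower from 0 to 3, and other iron genes called higher from 1 to 9 and lower from 2 to 24. Over all tested genes, those called higher ranged from 315 to 2390 and lower from 350 to 2527. Other iron genes called higher, 3 of 92 in the main analysis, numbered 6 of 91 with DESeq2, 8 of 83 with limma on log2(FPKM + 1) and 7 of 83 on log2(FPKM + 0.1). They numbered 6 of 92 with the length offset and 16 of 92 with the length and GC offset. Over all tested genes the counts, in the same order, were 1134 of 13082, 1222 of 12591, 1059 of 10842, 1028 of 10842, 1001 of 13082 and 1846 of 13082. The sign turned for Fth1 (0.18 with the length offset, 0.24 with the length and GC offset, and -0.089 to 0.063 with 1 library left out, above 0 only without si-NC replicate 3), Tfrc (-0.048 with the length and GC offset), Slc11a2 (-0.067 to 0.17 with 1 library left out, below 0 only without si-METTL3 replicate 3) and Herc2 (-0.052 with the length offset). The cause was not tested. Same-numbered replicates did not deviate together in every pair (correlations 0.23, 0.27 and -0.43 over genes). With the replicate block 1273 of 13082 genes were called, 710 of them lower. Of the 92 other iron genes tested 5 were lower, and the same 2 members were called. Slc40a1 was under the FPKM filter and had no value in both filtered FPKM fits.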

Other observations

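The lncRNA table lists 6 noncoding transcripts of 3 of the iron genes. The Ftl1 transcript ENSMUST00000210375 had 59, 26 and 25 counts in the controls against 43, 20 and 10 after METTL3 siRNA, and was the only one with enough counts to be tested (log2 fold change -0.33, SE 0.56). The Aco1 transcript ENSMUST00000135787 had 8, 2 and 4 counts in the controls against 13, 7 and 10 after METTL3 siRNA. The other 4, 2 of Aco1 and 2 of Slc40a1, had at most 5 counts in any library. Of the Fthl17 genes, ferritin heavy chain relatives, Fthl17e had 3 counts and Fthl17f had 1, all in si-NC replicate 3, and the other 4 rows had none.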
